A study of Mus musculus with 8 samples.

Results

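BAC cells are an immortalised line of brown preadipocytes, and the data describe their transcriptome at day 4 of differentiation against day 0. The comparison used 4 of the 8 RNA-seq libraries of the series, taken by their labels as 2 libraries of BAC day 4 and 2 of BAC day 0. The line carries the wild-type genotype and came from the interscapular brown fat of newborn mice. It was immortalised with a retrovirus for SV40 large T antigen, so both groups share that antigen, and all libraries come from 1 line. BAC day 4 cells received an induction medium with IBMX, indomethacin, dexamethasone, insulin and triiodothyronine (T3, the active thyroid hormone) up to day 2, and insulin with T3 from then on. BAC day 0 cells were confluent cells that had not yet received it. Day and treatment therefore cannot be told apart. Whether the replicates were grown as separate cultures is not in the labels, and the p-values thus cover the spread among 4 libraries, which could be technical.

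A brown adipocyte stores triglyceride in many small droplets and burns fatty acids and glucose in densely packed mitochondria, where uncoupling protein 1 turns the proton gradient into heat. Its precursor is a fibroblast-like cell that divides, spreads on a collagen-rich matrix and expresses few genes of lipid storage. Differentiation in culture is set off by raised cyclic AMP, glucocorticoid, insulin and thyroid hormone, which lead to the nuclear receptor PPARγ and the C/EBP factors.

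All 35949 rows with a gene name entered the count of members, and 27 rows whose names had been turned into calendar dates did not, since their genes cannot be read. The day 4 libraries held 9238243 and 9045849 counts, against 10152293 and 10160636 counts in the day 0 libraries. Of the named genes, 14028 passed the low-count filter and were tested. At day 4, 5488 genes were higher (39.1% of those tested) and 5526 were lower (39.4%), both by edgeR's quasi-likelihood test at an adjusted p below 0.05. The median log2 change of all genes tested was 0.008. Scaling by library size alone, without the correction for composition, gave 4298 higher and 6795 lower genes and moved the median by -0.263 log2 units. More than a 2-fold change was shown by 2397 higher genes (17.1%) and by 2737 lower genes (19.5%) in edgeR's test against that fold. With shares of this size, a family in which similar shares moved each way resembles the whole table, and each count of members is read against them. Values are CPM (counts divided by the library total and brought to a common total) scaled by edgeR's TMM factors unless another scale is named. A log2 change is day 4 over day 0. Its standard error (SE) was worked back from the change and its quasi-likelihood test statistic. Throughout, n is 2 libraries a group.

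Fat cell markers set the groups apart and markers of most other cell types were at or near 0. The 7 general fat cell markers summed to 20000 and 18800 CPM at day 4, against 988 and 971 CPM at day 0. The 9 brown fat cell markers summed to 875 and 734 CPM at day 4, against 145 and 136 CPM at day 0, and 8 of them were higher. The day 0 sum of the brown list came mostly from Ebf2, an early factor of brown fat precursors, with 148 and 148 CPM at day 4, against 134 and 124 CPM at day 0, a change of 0.19 that turned to -0.069 when scaled by library size alone. Dio2, the thyroid hormone activating deiodinase, was too low to test, with 0.598 and 0.363 CPM at day 4 and no count at day 0. The 8 markers of preadipocytes and fibroblasts fell together, with sums of 420 and 411 CPM at day 4 against 16900 and 17300 CPM at day 0. Among 8 leukocyte markers, 3 had no count in any library, including Ptprc and Adgre1, and the list summed to at most 8.37 CPM in a library. Most of that sum was Cd68, a lysosomal protein used as a macrophage marker and the 1 member tested, which was higher with 7.65 and 5.92 CPM at day 4, against 3.69 and 3.71 CPM at day 0 (0.87). Of 6 endothelial markers only Kdr was tested, and it fell to 0 and 0.242 CPM at day 4, against 15.3 and 16.5 CPM at day 0. The 8 skeletal muscle markers summed to less than 1 CPM in every library. In a bulk culture fewer cells of a kind and less RNA per cell cannot be told apart.

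The genes that moved included fat storage genes that rose and antiviral genes that fell, and promoter windows of 6 of them are shown because each holds the letters of an element known from such genes. Each window runs from 250 bases before to 50 bases after a start that RefSeq's promoter table of GRCm38.p6 uses for the gene, 300 bases in all, read on the gene's own strand. For Plin1, Ddx60 and Trim34a that start lies inside the outer end of the gene in RefSeq's gene table. Plin1 (perilipin 1, which coats the lipid droplet) and Cidec (which enlarges droplets) are marked with the EBF element TCCCNNGGG, and Plin1 also with the C/EBP element TTGCNNAA. Ddx58 (RIG-I) and Ddx60, which sense viral RNA, and Trim30a and Trim34a, TRIM proteins of innate immunity, are marked with the interferon-stimulated element TTCNNTTTC. Both strands were searched, capitals mark the element, and capitals on the opposite strand appear as the reverse complement. The windows lie at chr7:79732727-79733026 (Plin1, minus strand), chr6:113435711-113436010 (Cidec, minus), chr4:40239776-40240075 (Ddx58, minus), chr8:61927837-61928136 (Ddx60, plus), chr7:104465144-104465443 (Trim30a, minus) and chr7:104244207-104244506 (Trim34a, plus).
Plin1: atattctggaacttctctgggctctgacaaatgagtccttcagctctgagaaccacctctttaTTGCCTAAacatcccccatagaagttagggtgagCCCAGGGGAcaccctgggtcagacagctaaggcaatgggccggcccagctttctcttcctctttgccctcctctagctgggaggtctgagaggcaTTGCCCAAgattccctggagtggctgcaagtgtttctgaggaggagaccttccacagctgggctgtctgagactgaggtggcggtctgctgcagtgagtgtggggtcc
Cidec: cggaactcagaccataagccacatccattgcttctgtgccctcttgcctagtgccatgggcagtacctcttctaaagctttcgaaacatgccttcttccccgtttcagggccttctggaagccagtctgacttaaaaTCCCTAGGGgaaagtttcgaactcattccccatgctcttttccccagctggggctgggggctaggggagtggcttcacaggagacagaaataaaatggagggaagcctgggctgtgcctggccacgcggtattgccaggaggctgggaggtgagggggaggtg
Ddx58: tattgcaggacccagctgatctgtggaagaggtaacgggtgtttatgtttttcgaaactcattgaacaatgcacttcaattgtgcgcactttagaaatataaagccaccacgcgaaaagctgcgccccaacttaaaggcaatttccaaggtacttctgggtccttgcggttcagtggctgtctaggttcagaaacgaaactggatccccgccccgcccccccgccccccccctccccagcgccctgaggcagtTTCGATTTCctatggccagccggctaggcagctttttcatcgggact
Ddx60: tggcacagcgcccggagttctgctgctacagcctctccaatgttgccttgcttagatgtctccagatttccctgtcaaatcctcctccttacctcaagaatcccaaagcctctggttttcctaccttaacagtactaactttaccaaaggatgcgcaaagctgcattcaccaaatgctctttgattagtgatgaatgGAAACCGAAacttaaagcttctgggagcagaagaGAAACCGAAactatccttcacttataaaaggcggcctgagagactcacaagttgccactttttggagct
Trim30a: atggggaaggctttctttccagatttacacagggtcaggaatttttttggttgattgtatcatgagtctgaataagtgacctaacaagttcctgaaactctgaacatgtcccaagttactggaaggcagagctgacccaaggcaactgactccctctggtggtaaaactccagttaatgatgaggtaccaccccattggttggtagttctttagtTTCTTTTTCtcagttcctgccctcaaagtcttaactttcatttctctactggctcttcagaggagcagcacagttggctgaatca
Trim34a: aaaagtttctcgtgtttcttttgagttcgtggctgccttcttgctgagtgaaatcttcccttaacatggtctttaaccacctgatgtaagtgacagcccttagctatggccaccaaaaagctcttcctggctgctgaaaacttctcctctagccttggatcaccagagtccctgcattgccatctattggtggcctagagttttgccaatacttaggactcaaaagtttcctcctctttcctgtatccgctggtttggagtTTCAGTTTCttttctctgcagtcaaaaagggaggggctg

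A window could be read for 10439 of the 14028 genes tested, from the table's first entry for each symbol. Shares of genes higher or lower by more than 2-fold are read against the share over windows of all genes tested, since windows of untested genes differ from them. Letters of the interferon-stimulated element were in 6.2% of windows of strongly higher genes and in 9.11% of windows of strongly lower genes, against 6.88% over genes tested and 8.57% of all 27025 windows. Within the TRIM family the element was in 10 of 14 windows of members lower by more than 2-fold and in 0 of 18 windows of the other members tested, and several of the 10 belong to related copies in a cluster on chromosome 7. Among DEAD and DEAH box helicases it was in 2 of 3 windows of members lower by more than 2-fold, those of Ddx58 and Ddx60, and also in 5 of 43 windows of the other members tested. The EBF element was in 7.21% of windows of strongly higher genes and in 9.97% of windows of strongly lower genes, against 7.9% over genes tested and 6.43% of all windows. The C/EBP element was in 8.83% of windows of strongly higher genes and 8.3% of strongly lower ones, close to the 8.08% over genes tested, and in 10.8% of all windows. The NRF1 element GCGCATGCG, bound by a regulator of nuclear genes for mitochondria, was in 4.02% of windows of strongly higher genes, close to the 3.65% over genes tested, and in 1.62% of windows of strongly lower genes, with 1.81% of all windows. The cAMP response element TGACGTCA was in 3.41% of windows of strongly higher genes, close to the 3.29% over genes tested, and in 2.13% of windows of strongly lower genes, with 1.88% of all windows. These are counts of letters and were not tested.

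The most abundant transcripts differed between the days. The 12 genes with the largest gain in CPM took 12.8% and 13.5% of all counts at day 4, against 2.81% and 2.82% at day 0. Of these 12, 5 are encoded by mitochondrial DNA (COX1, ND1, CYTB, ND2 and ND4), and 7 are nuclear. COX1, a subunit of cytochrome c oxidase, had 36400 and 43800 CPM at day 4, against 10300 and 10500 CPM at day 0 (log2 change 1.95 ± 0.10). Fabp4, the fatty acid binding protein of fat cells, had 13500 and 12200 CPM at day 4, against 105 and 65.5 CPM at day 0 (7.24 ± 0.19). Scd1, the desaturase that makes oleate, had 13500 and 12500 CPM at day 4, against 263 and 249 CPM at day 0 (5.67 ± 0.10). Bsg, the basigin chaperone of lactate transporters, had 5650 and 4950 CPM at day 4, against 642 and 651 CPM at day 0 (3.03 ± 0.09). Mitochondrial transcripts made up 8.49% and 9.91% of counts at day 4, against 3.05% and 3.01% at day 0. Leaving them out changed the number of higher genes to 5461 and of lower genes to 5595.

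The 12 genes with the largest loss in CPM encode proteins of the matrix or proteins secreted into it, and they held 0.256% and 0.247% of counts at day 4, against 5.54% and 5.60% at day 0. Col1a1, a chain of type I collagen, had 132 and 129 CPM at day 4, against 8270 and 8290 CPM at day 0 (log2 change -5.99 ± 0.10). Bgn, the proteoglycan biglycan, had 182 and 180 CPM at day 4, against 3210 and 3190 CPM at day 0 (-4.14 ± 0.09). Predicted genes (Gm, Rik and similar names) are left out of rankings by fold. Ptn, the growth factor pleiotrophin, had the steepest fall among the other called genes with 10 or more counts in every library. It had 4.18 and 3.75 CPM at day 4, against 2660 and 2270 CPM at day 0 (-9.27 ± 0.15, adjusted p = 3.07e-15).

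Genes were ranked by fold among called genes with 10 or more counts in every library, predicted genes left out. This count rule drops genes near 0 on a day such as Thrsp, Cfd, Kcnk3 and Abca9. Gpd1, the glycerol-3-phosphate dehydrogenase that supplies the glycerol backbone of triglyceride (chr15:99717587-99725014), had 3090 and 2420 CPM at day 4, against 4.42 and 2.62 CPM at day 0 (9.61 ± 0.19). Chchd10, a mitochondrial intermembrane space protein, had 948 and 884 CPM at day 4, against 1.53 and 0.905 CPM at day 0 (9.54 ± 0.15). The other large rises included Cd36 (fatty acid uptake), Slc2a4 (the insulin-responsive glucose transporter GLUT4) and Pnpla2 (the triglyceride lipase ATGL), with log2 changes of 7.76, 7.18 and 7.01. Itih4, a plasma protein best known from liver, and Abi3, an adaptor of actin regulation, rose as steeply, with log2 changes of 7.32 and 6.81. Among the falls stood the secreted Wnt antagonists Sfrp1 (-7.19 ± 0.13) and Sfrp2 (-6.69 ± 0.13), with 2.51 and 2.06 CPM of Sfrp1 at day 4 and 340 and 333 CPM at day 0. S100a4, a calcium-binding protein of fibroblasts, had 1.32 and 1.33 CPM at day 4, against 184 and 175 CPM at day 0 (-7.07 ± 0.14). These genes were picked by fold, so the gap between their day 4 and day 0 libraries follows from the choice.

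**Figure D1:**
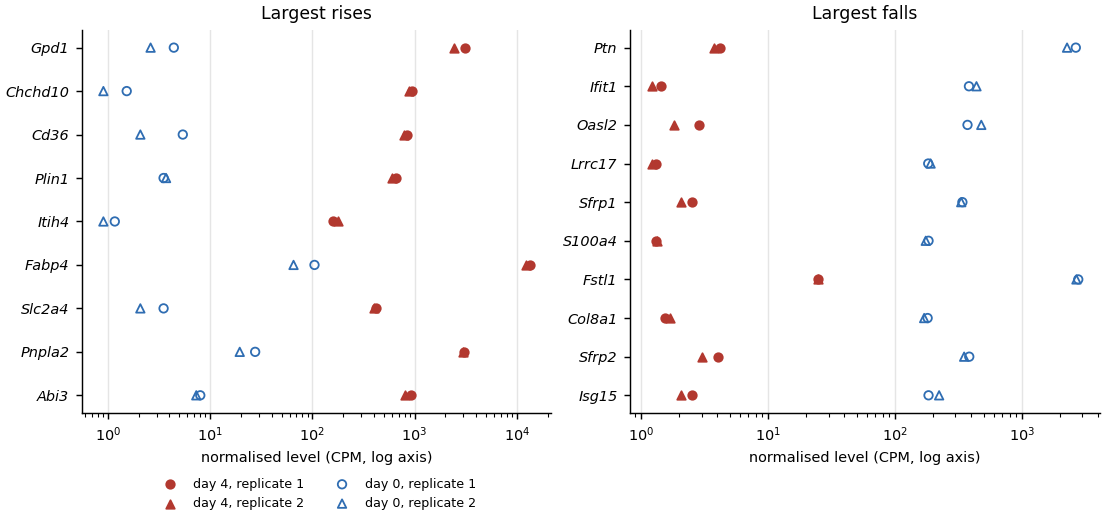
Normalised level (CPM, log axis) of 9 of the 10 genes with the largest rises and the 10 with the largest falls. They were ranked among called genes with 10 or more counts in every library, predicted genes left out. Filled red symbols are the 2 day 4 libraries and open blue symbols the 2 day 0 libraries. The genes were picked by fold, so the gap between the days follows from the choice.

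Some genes had no count at all on one of the days. With predicted genes left out, 47 genes had no count in either day 0 library and at least 10 in each day 4 library. The opposite was shown by 110 genes. These are raw counts, and the day 4 libraries held fewer counts than the day 0 libraries. The rule is therefore easier to meet in the second direction, and the 2 numbers cannot be compared directly. Pck1, the carboxykinase of gluconeogenesis and glyceroneogenesis, had 279 and 296 counts at day 4 and 0 at day 0, at least 256-fold higher against a floor of 3 counts over the day 0 group. Ucp1, the uncoupling protein itself, had 427 and 173 counts at day 4 and 0 at day 0, at least 267-fold higher. Its 2 day 4 libraries differed by 1.25 log2 units, with a small constant added to each CPM. Tmem82, a membrane protein of little known function, had 440 and 389 counts at day 4 and 0 at day 0, at least 369-fold higher. In the other direction Tgtp2, an interferon-induced GTPase, had 0 counts at day 4, against 163 and 215 at day 0, at least 94.5-fold lower. Vsnl1, a neuronal calcium sensor, had 0 counts at day 4, against 160 and 161 at day 0, at least 80.2-fold lower. Lsp1, an actin-binding protein described in leukocytes, had 0 counts at day 4, against 158 and 162 at day 0, at least 80.0-fold lower.

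Across 69 gene lists the families separated widely. At one end 11 of 12 tested acyl-CoA synthetases and thioesterases were higher and 0 lower, and at the other all 40 tested cadherins and protocadherins were lower. Mediator subunits, nucleoporins and splicing factors had median log2 changes of 0.12, -0.06 and -0.15, or of -0.14, -0.33 and -0.42 when scaled by library size alone, and no more than 1 member of each list passed the 2-fold test in either direction. A list counts only members that passed the low-count filter, and a member may pass it through the day on which it is high. A minimum of 50 counts in place of 10 shortened lists of rarer genes, and left 3 higher and 5 lower potassium channels and 6 higher cytochromes P450. The counts are descriptions and no list was tested as a whole.

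**Figure D2:**
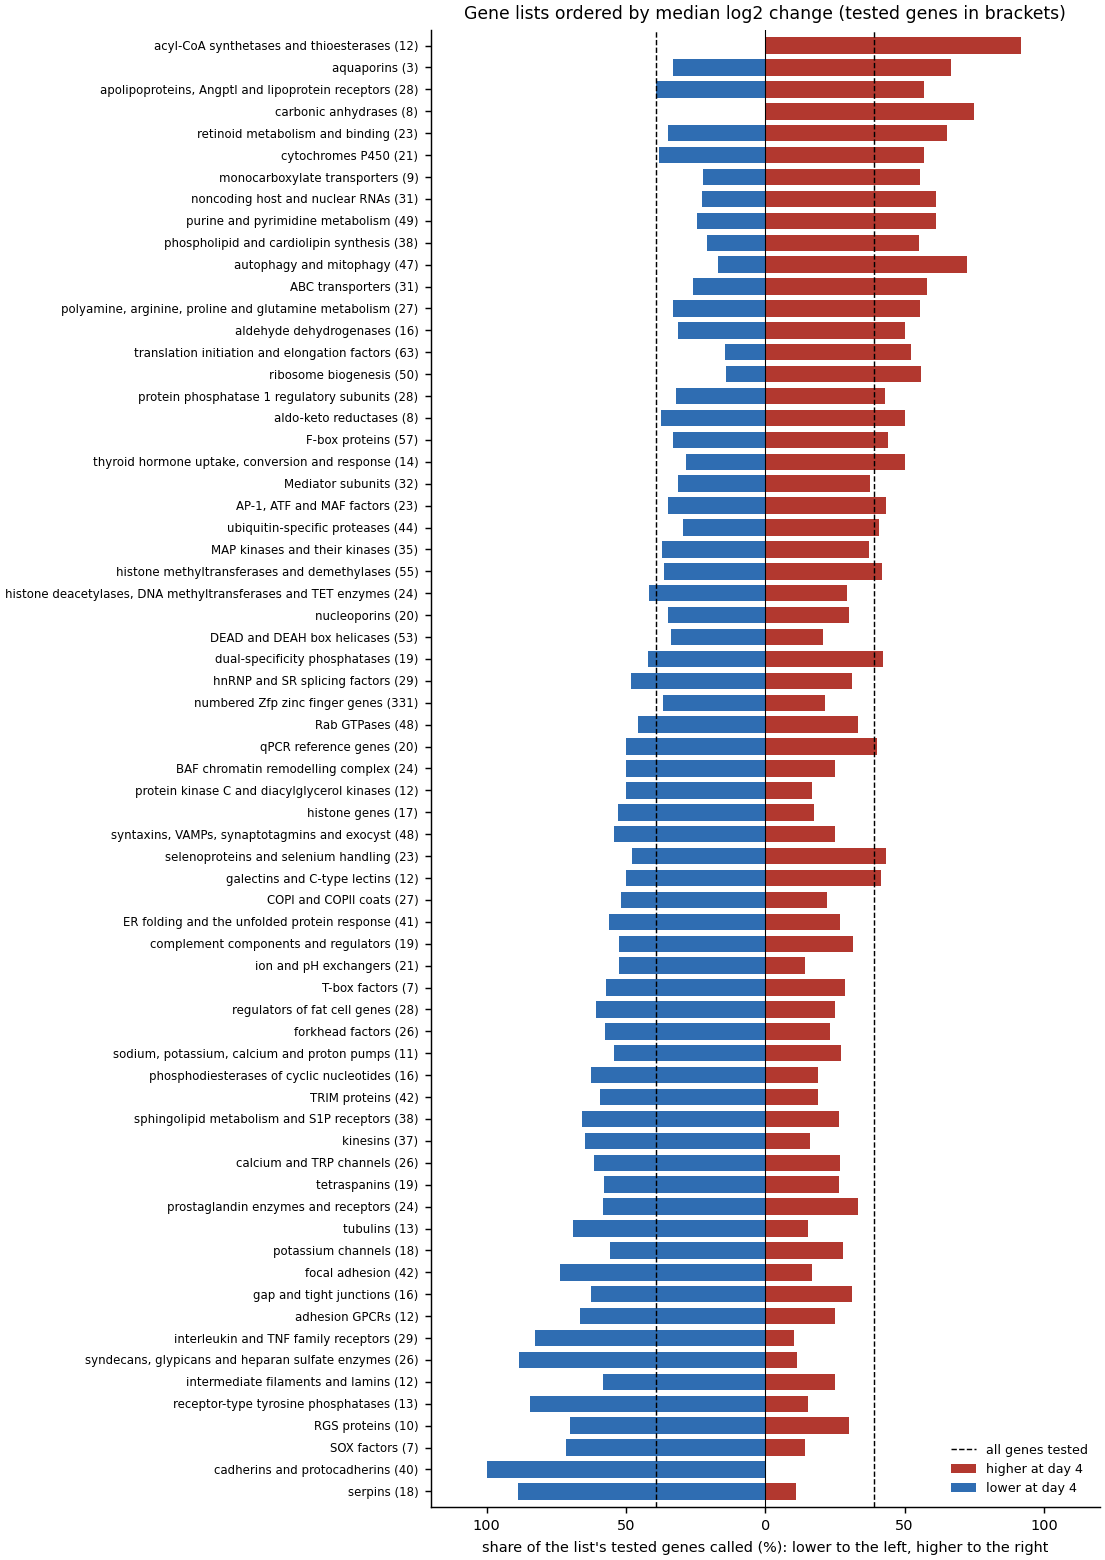
Share of each list's tested genes that were higher at day 4 (red, to the right) or lower (blue, to the left), for 67 of the 69 lists ordered by their median log2 change, with the number of tested genes in brackets. Dashed lines mark the shares over all genes tested, 39.1% higher and 39.4% lower.

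Ion channels fell more often than they rose, with a few steep rises among them. Of 93 potassium channel genes and subunits listed, 39 had no count in any library and 18 were tested, of which 5 were higher and 10 lower. Kcnk3, the leak channel TASK-1 that helps to set the resting membrane potential, was by far the most abundant at day 4. It had 401 and 405 CPM at day 4, against 0.451 and 0.271 CPM at day 0 (log2 change 10.07 ± 0.16, adjusted p = 3.07e-15). Of 26 tested calcium and TRP channels, 7 were higher and 16 lower. The mechanosensitive channel Piezo2 fell to 1.79 and 0.846 CPM at day 4, against 83.8 and 82.0 CPM at day 0 (-5.96 ± 0.18). Its relative Piezo1 fell less, with 112 and 117 CPM at day 4, against 236 and 246 CPM at day 0 (-1.07 ± 0.08).

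Pumps and exchangers had members that moved in both directions, with more lower than higher. Among 11 tested cation and proton pumps, 3 were higher and 6 lower. Atp2a3, the calcium pump SERCA3 of the endoplasmic reticulum, had 516 and 528 CPM at day 4, against 0.991 and 0.452 CPM at day 0 (9.47 ± 0.16). The sodium pump's β1 subunit Atp1b1 fell to 4.66 and 4.71 CPM at day 4, against 46.9 and 49.9 CPM at day 0 (-3.37 ± 0.14). Of 21 tested exchangers of sodium, bicarbonate, chloride, potassium and calcium, 3 were higher and 11 lower. Slc4a4, a sodium bicarbonate cotransporter, rose to 101 and 106 CPM at day 4, against 2.61 and 3.17 CPM at day 0, while the sodium calcium exchanger Slc8a1 fell to 1.32 and 1.69 CPM at day 4, against 26.4 and 27.0 CPM at day 0.

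Carbonic anhydrases and monocarboxylate carriers were more often higher than lower. Of 8 tested carbonic anhydrases, which interconvert carbon dioxide and bicarbonate, 6 were higher and 0 lower, with a median log2 change of 1.43. Car5b, the mitochondrial form, had 340 and 385 CPM at day 4, against 8.56 and 7.69 CPM at day 0 (5.48 ± 0.11), and Car3, the cytosolic form of fat and muscle, had 189 and 187 CPM at day 4, against 8.47 and 4.98 CPM at day 0 (4.80 ± 0.14). Scaling by library size alone gave 4 higher and 1 lower member of this list. Of 3 tested aquaporins 2 were higher and 1 lower. Aqp7, the glycerol channel of fat cells, had 113 and 121 CPM at day 4, against 1.71 and 2.17 CPM at day 0 (5.90 ± 0.14), while the water channel Aqp1 fell to 0.359 and 0.242 CPM at day 4, against 3.60 and 3.26 CPM at day 0. Of 9 tested monocarboxylate transporters 5 were higher and 2 lower. Slc16a1, the lactate and pyruvate transporter MCT1, had 193 and 193 CPM at day 4, against 39.6 and 35.2 CPM at day 0 (2.37 ± 0.09). The ABC transporters, ATP-driven exporters, had 18 higher and 8 lower members of 31 tested. They included the cholesterol exporters Abcg1 (77.0 and 67.8 CPM at day 4, 0.901 and 0.724 CPM at day 0) and Abca1 (228 and 281 CPM at day 4, 78.4 and 85.8 CPM at day 0). Abca9 went the other way, with 0.239 and 0.121 CPM at day 4, against 67.3 and 68.5 CPM at day 0 (-8.46 ± 0.23).

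Cadherins fell without exception among the members tested. Of 93 cadherin and protocadherin genes, which join cells through calcium-dependent contacts, 31 had no count in any library and 40 were tested. All 40 were lower, 36 of them by more than 2-fold, with a median log2 change of -2.93. Some passed the filter through day 0 alone, such as Cdh18 with 0 counts at day 4 and 27 and 32 at day 0. At a minimum of 50 counts 23 were counted as lower. That filter too lets a member pass through the day on which it is high, so it does not check this. Pcdh18 had 1.55 and 0.242 CPM at day 4, against 64.0 and 64.3 CPM at day 0 (-6.13 ± 0.24). Pcdh19 had 2.39 and 2.66 CPM at day 4, against 72.5 and 73.9 CPM at day 0 (-4.85 ± 0.14). Pcdhgc3, of the clustered γ-protocadherins, was the most abundant and fell less, with 62.2 and 80.6 CPM at day 4, against 256 and 304 CPM at day 0 (-1.97 ± 0.11). The γ-protocadherin transcripts share their last exons, so their counts are uncertain among themselves.

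Syndecans, glypicans and adhesion GPCRs were mostly lower too, while lectins split. Of 26 tested syndecans, glypicans and enzymes of heparan sulfate and hyaluronan, 23 were lower and 3 higher. Sdc3 had 6.70 and 6.29 CPM at day 4, against 168 and 177 CPM at day 0 (-4.73 ± 0.11), and the hyaluronan synthase Has2 had 1.20 and 1.09 CPM at day 4, against 27.3 and 26.8 CPM at day 0 (-4.55 ± 0.21). Among 12 tested galectins and C-type lectins, 5 were higher and 6 lower. Lgals12, a galectin of the lipid droplet, had 202 and 215 CPM at day 4, against 5.23 and 2.90 CPM at day 0 (5.68 ± 0.14). Lgals9 had 12.2 and 5.80 CPM at day 4, against 280 and 309 CPM at day 0 (-5.03 ± 0.17). Of 19 tested tetraspanins, organisers of membrane domains, 5 were higher and 11 lower. Tspan18 had 209 and 198 CPM at day 4, against 7.21 and 5.61 CPM at day 0, whereas the widespread Cd63 had 141 and 127 CPM at day 4, against 619 and 602 CPM at day 0. Of 12 tested adhesion GPCRs 8 were lower and 3 higher, and the 3 became 1 when scaled by library size alone or without day 0 replicate 1. Adgra2 had 9.45 and 12.5 CPM at day 4, against 229 and 239 CPM at day 0 (-4.42 ± 0.11).

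Cytokine receptors and serpins, a family made up mainly of protease inhibitors, were mostly lower, while lipoprotein and complement genes split. Of 29 tested receptors of interleukins and TNF family ligands, 24 were lower and 3 higher. Il4ra had 7.89 and 6.65 CPM at day 4, against 177 and 183 CPM at day 0 (-4.63 ± 0.11), while Il15ra had 60.6 and 55.2 CPM at day 4, against 2.61 and 2.08 CPM at day 0 (4.62 ± 0.15). Of 63 serpins, 18 were tested, with 16 lower and 2 higher and a median log2 change of -3.31. Serpinh1, the collagen chaperone HSP47, had 155 and 167 CPM at day 4, against 1070 and 1040 CPM at day 0 (-2.72 ± 0.08). The Serpina3 and Serpinb1 genes exist as close copies, so counts of single members are uncertain. In the complement list, 6 of 19 tested genes were higher and 10 lower. Cfd, the complement factor D that fat cells secrete as adipsin, had 1200 and 1450 CPM at day 4, against 0.0901 and 0.452 CPM at day 0 (12.19 ± 0.22). C3 rose to 755 and 866 CPM at day 4, against 45.7 and 42.7 CPM at day 0 (4.20 ± 0.10), and the lectin pathway protease Masp1 fell to 2.15 and 1.45 CPM at day 4, against 59.9 and 67.2 CPM at day 0.

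Among apolipoproteins, angiopoietin-like proteins and lipoprotein receptors, 16 of 28 tested genes were higher and 11 lower, and all but 2 of the called genes passed the 2-fold test. Apoc1 had 136 and 122 CPM at day 4, against 0.270 and 0.543 CPM at day 0 (8.26 ± 0.19). The scavenger and signalling receptor Lrp1 fell to 270 and 297 CPM at day 4, against 1770 and 1960 CPM at day 0 (-2.72 ± 0.09).

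Enzymes and receptors that shape cyclic AMP and lipid signals were more often lower than higher, with abundant members among the exceptions. Of 16 tested phosphodiesterases of cyclic nucleotides, 3 were higher and 10 lower, and Pde3b, which relays the antilipolytic action of insulin, held the highest level. It had 400 and 411 CPM at day 4, against 35.0 and 32.8 CPM at day 0 (3.58 ± 0.09). Of 24 tested prostaglandin genes 8 were higher (5 when scaled by library size alone) and 14 lower. Ptgs1, the cyclooxygenase COX-1, had 6.34 and 4.96 CPM at day 4, against 91.3 and 92.9 CPM at day 0 (-4.02 ± 0.13). Pla2g16, the phospholipase of fat cells now called PLAAT3, had 497 and 505 CPM at day 4, against 42.4 and 41.0 CPM at day 0 (3.59 ± 0.08). Of 10 tested RGS proteins, which switch off G protein signals, 3 were higher and 7 lower. Rgs2 had 275 and 385 CPM at day 4, against 18.8 and 14.1 CPM at day 0 (4.32 ± 0.16), and Rgs16 had 0.478 and 0.484 CPM at day 4, against 26.0 and 24.6 CPM at day 0 (-5.68 ± 0.25).

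Kinases and regulators of protein phosphatase 1 changed in both directions, while receptor-type tyrosine phosphatases were mostly lower. The MAP kinases and their kinases had 13 higher and 13 lower members of 35 tested, with a median log2 change of 0.04 that turned to -0.22 when scaled by library size alone. Map3k15, a stress-responsive kinase, had 297 and 296 CPM at day 4, against 43.9 and 47.3 CPM at day 0 (2.70 ± 0.08). Protein kinase C α (Prkca) had 16.3 and 14.7 CPM at day 4, against 149 and 158 CPM at day 0 (-3.30 ± 0.10), whereas the diacylglycerol kinase Dgkd had 365 and 428 CPM at day 4, against 42.4 and 46.0 CPM at day 0 (3.17 ± 0.10). Among regulatory subunits of protein phosphatase 1, 12 of 28 tested were higher and 9 lower. The glycogen-targeting subunits Ppp1r3b and Ppp1r3c were among those that rose, Ppp1r3b to 357 and 350 CPM at day 4, against 7.84 and 8.23 CPM at day 0 (5.46 ± 0.10), and Ppp1r3c to 199 and 153 CPM at day 4, against 17.0 and 17.6 CPM at day 0 (3.34 ± 0.13). Of 13 tested receptor-type tyrosine phosphatases 11 were lower and 2 higher, 8 of them lower by more than 2-fold, with a median log2 change of -1.92. Ptprs fell to 85.7 and 93.1 CPM at day 4, against 338 and 339 CPM at day 0 (-1.92 ± 0.08).

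Genes of retinoids were more often higher than lower, and those of thyroid hormone depended on the scaling. Retinoids and thyroid hormone are both ligands of nuclear receptors, and T3 itself was in the medium of the day 4 cells. Of 14 tested thyroid genes 7 were higher and 4 lower, or 6 each way when scaled by library size alone. Thrsp, a lipogenic gene long known as a thyroid hormone target, had 693 and 652 CPM at day 4, against 0.0901 and 0.0905 CPM at day 0 (12.67 ± 0.19). The thyroid hormone receptor gene Thrb was low on both days, with 2.27 and 3.75 CPM at day 4, against 0.360 and 0.362 CPM at day 0 (3.01 ± 0.45). Klf9, a target of thyroid hormone and glucocorticoid, had 208 and 252 CPM at day 4, against 14.9 and 15.2 CPM at day 0 (3.93 ± 0.11). In the retinoid list 15 of 23 tested genes were higher and 8 lower. Rbp4, the plasma carrier of retinol, had 138 and 91.0 CPM at day 4, against 2.43 and 2.71 CPM at day 0 (5.47 ± 0.23). Retsat, the retinol saturase, had 246 and 218 CPM at day 4, against 26.6 and 26.9 CPM at day 0 (3.12 ± 0.09). The cellular binding protein Crabp1 fell to 0.120 and 0 CPM at day 4, against 5.41 and 5.07 CPM at day 0 (-6.17 ± 0.57).

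Lists of the cytoskeleton and of cell adhesion sites held more lower than higher genes. Of 13 tested tubulins 9 were lower and 2 higher. Tuba1a had 9.80 and 7.98 CPM at day 4, against 675 and 560 CPM at day 0 (-6.11 ± 0.13), and Tubb5 had 294 and 275 CPM at day 4, against 1300 and 1240 CPM at day 0 (-2.16 ± 0.08). Tubulin genes are near-identical in their coding sequence, so counts of single members are uncertain. Of 37 tested kinesins, the motors that walk on microtubules, 24 were lower and 6 higher, and Kif1a had no count at day 4 and 6.76 and 7.69 CPM at day 0. Of 42 tested focal adhesion genes 31 were lower and 7 higher, with a median log2 change of -1.10. Flna, the actin crosslinker filamin A, had 75.2 and 83.7 CPM at day 4, against 1100 and 1290 CPM at day 0 (-3.91 ± 0.10). Parvg, a parvin described in blood cells, ran against the list with 25.5 and 23.5 CPM at day 4, against 0.180 and 0.0905 CPM at day 0 (7.37 ± 0.31). Of 12 tested intermediate filament and lamin genes 7 were lower and 3 higher. Vim, the vimentin of mesenchymal cells, had 302 and 345 CPM at day 4, against 2050 and 2090 CPM at day 0 (-2.68 ± 0.09), and Des, the desmin of muscle, had 46.9 and 47.0 CPM at day 4, against 4.06 and 2.62 CPM at day 0 (3.81 ± 0.16).

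**Figure D3:**
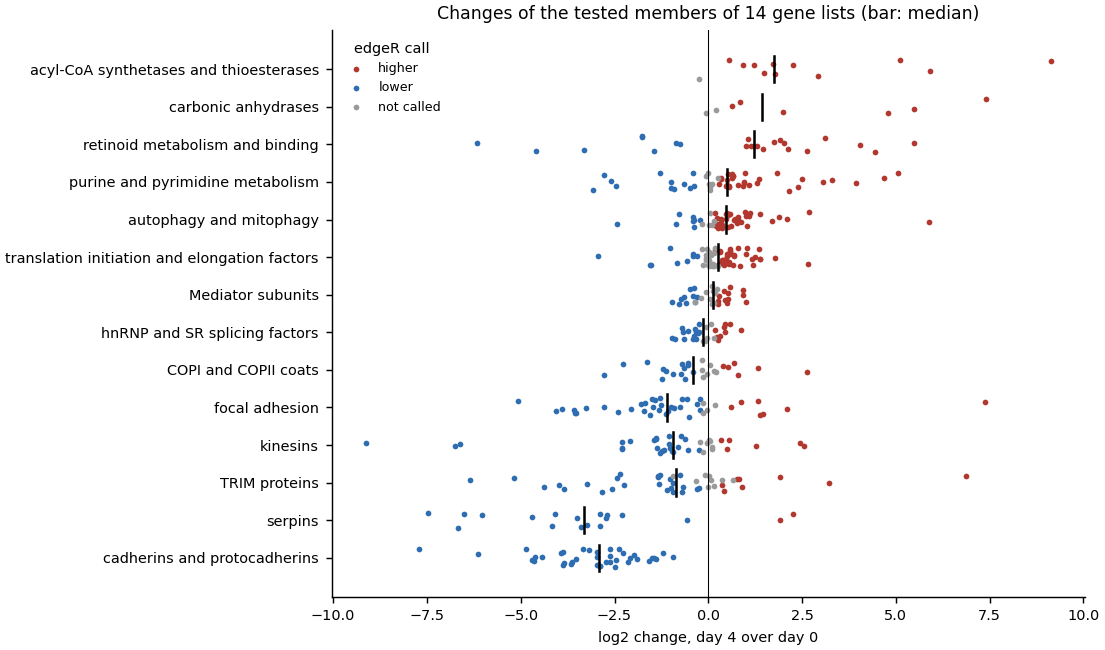
Log2 change (day 4 over day 0) of every tested member of 14 lists, coloured by the edgeR call (red higher, blue lower, grey not called), with a black bar at each list's median. The medians run between 1.75 for acyl-CoA synthetases and thioesterases and -3.31 for serpins, and the Mediator and splicing factor members stay close to 0.

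Chromatin and transcription machinery had members that moved in both directions, as all genes tested did (39.1% higher and 39.4% lower), and no Mediator subunit passed the 2-fold test. Of 32 tested Mediator subunits 12 were higher (37.5%) and 10 lower (31.2%) and 0 passed the 2-fold test. Scaling by library size alone gave 5 higher and a median of -0.14. Of 55 tested histone methyltransferases and demethylases 23 were higher (41.8%) and 20 lower (36.4%), near the shares of all genes tested. The 23 became 14 when scaled by library size alone. Dot1l, which methylates histone H3 in its globular domain, had 571 and 600 CPM at day 4, against 133 and 132 CPM at day 0 (2.14 ± 0.08). Suv420h2, a methyltransferase of histone H4, had 250 and 238 CPM at day 4, against 57.7 and 54.7 CPM at day 0 (2.12 ± 0.08). Of 24 tested histone deacetylases, DNA methyltransferases and TET enzymes 7 were higher (29.2%) and 10 lower (41.7%). Scaling by library size alone left 3 higher. Hdac7 fell to 18.1 and 18.5 CPM at day 4, against 187 and 183 CPM at day 0 (-3.34 ± 0.09), and Tet1 to 0.717 and 0.846 CPM at day 4, against 11.8 and 10.9 CPM at day 0 (-3.84 ± 0.28). Of 24 tested genes of the BAF remodelling complex 6 were higher and 12 lower, or 2 and 16 when scaled by library size alone, and 20.8% were lower by more than 2-fold, near the 19.5% of all genes tested. Its ATPase Smarca2 had 28.8 and 34.6 CPM at day 4, against 105 and 108 CPM at day 0 (-1.75 ± 0.10).

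Transcription factor families showed single large changes in both directions. Zbtb16, the zinc finger factor PLZF, had 102 and 126 CPM at day 4, against 0.360 and 0.181 CPM at day 0 (8.65 ± 0.23). Bcl6, a repressor with known roles in fat tissue, had 467 and 455 CPM at day 4, against 30.4 and 26.6 CPM at day 0 (4.02 ± 0.09). Zfp521, which holds back early fat cell commitment in mice, had 3.83 and 4.59 CPM at day 4, against 66.3 and 66.1 CPM at day 0 (-3.97 ± 0.13). Of 7 tested SOX factors 5 were lower and 1 higher. Sox9 had 1.43 and 1.57 CPM at day 4, against 38.3 and 33.0 CPM at day 0 (-4.56 ± 0.20), and Sox6 had 3.47 and 4.71 CPM at day 4, against 0 and 0.0905 CPM at day 0. Tbx15, a T-box factor of brown fat precursors in mice, had 24.6 and 32.0 CPM at day 4, against 117 and 114 CPM at day 0 (-2.03 ± 0.11). Of 331 tested zinc finger genes with a numbered Zfp symbol, 71 were higher (21.5%, against 39.1% of all genes tested), 122 lower (36.9%, against 39.4%) and 138 not called. Scaling by library size alone left 43 higher. The 2-fold test was passed by 14 higher (4.23%, against 17.1%) and 36 lower genes (10.9%, against 19.5%), smaller shares than over all genes tested. The imprinting factor Zfp57 had 1.32 and 1.45 CPM at day 4, against 38.8 and 38.9 CPM at day 0 (-4.80 ± 0.18).

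Ribosome biogenesis genes and translation factors were more often higher than lower, mostly by small amounts. Of 50 tested ribosome biogenesis genes 28 were higher and 7 lower, and of 63 tested initiation and elongation factors 33 were higher and 9 lower. Both lists had a median log2 change of 0.26, which is the size of the shift that scaling by library size alone brings, and that scaling gave 16 higher and 13 lower ribosome biogenesis genes and 24 higher and 22 lower translation factors. More than a 2-fold rise was shown by 5 ribosome biogenesis genes and 7 translation factors (11.1%, against 17.1% of all genes tested). The 7 lower ribosome biogenesis genes became 4 with DESeq2 and without day 0 replicate 2. Eif4ebp1, the translation repressor 4E-BP1 that insulin signalling inactivates, had 587 and 517 CPM at day 4, against 93.6 and 80.2 CPM at day 0 (2.67 ± 0.10). Eif2ak2, the double-stranded RNA kinase PKR, had 23.4 and 26.1 CPM at day 4, against 175 and 207 CPM at day 0 (-2.95 ± 0.11). Of 53 tested DEAD and DEAH box helicases 11 were higher and 18 lower, or 5 and 34 when scaled by library size alone. The steepest falls among them, Dhx58, Ddx60 and Ddx58, are in sensors of viral RNA. Ddx58 had 25.5 and 25.0 CPM at day 4, against 250 and 294 CPM at day 0 (-3.43 ± 0.10). Ddx60 had 0.478 and 0.967 CPM at day 4, against 33.2 and 35.2 CPM at day 0 (-5.54 ± 0.23). Of 85 listed histone genes, not all of them replication-dependent, 17 were tested and another 17 had no count in any library. The libraries were made from polyadenylated RNA, and transcripts of replication-dependent histone genes mostly lack that tail. Whether this set the number tested was not tested.

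The secretory route had more lower than higher genes, and autophagy more higher than lower ones. Of 41 tested genes of protein folding in the endoplasmic reticulum 11 were higher and 23 lower. P4hb, protein disulfide isomerase and part of the collagen hydroxylase, had 226 and 210 CPM at day 4, against 1080 and 1120 CPM at day 0 (-2.33 ± 0.08), while the oxidase Ero1l had 592 and 567 CPM at day 4, against 27.8 and 27.4 CPM at day 0 (4.39 ± 0.09). Of 27 tested COPI and COPII coat genes 6 were higher and 14 lower. Sec24d, of the coat that packs procollagen, had 25.5 and 29.5 CPM at day 4, against 189 and 185 CPM at day 0 (-2.77 ± 0.09). Of 47 tested autophagy and mitophagy genes 34 were higher and 8 lower, and scaling by library size alone left 22 higher. Most of these rises were small, with a median log2 change of 0.46. More than a 2-fold rise was shown by 6 genes (12.8%, against 17.1% of all genes tested). Bnip3, a mitophagy receptor, had 1490 and 1290 CPM at day 4, against 22.8 and 24.2 CPM at day 0 (5.89 ± 0.11). Bcl2l13, another, had 325 and 334 CPM at day 4, against 76.1 and 78.8 CPM at day 0 (2.09 ± 0.08).

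Among ubiquitin ligases of the TRIM family 25 of 42 tested genes were lower and 8 higher. Trim30a had 1.67 and 0.846 CPM at day 4, against 92.7 and 116 CPM at day 0 (-6.35 ± 0.21), and Trim34a had 1.91 and 1.93 CPM at day 4, against 38.5 and 42.3 CPM at day 0 (-4.38 ± 0.17). Both belong to a cluster of closely related copies on chromosome 7, so their separate counts are uncertain. Trim67, a family member described in neurons, rose to 30.0 and 26.1 CPM at day 4, against 0.180 and 0.271 CPM at day 0 (6.88 ± 0.28). The protease Usp18, which removes the ubiquitin-like protein ISG15, had 7.89 and 7.25 CPM at day 4, against 106 and 114 CPM at day 0 (-3.86 ± 0.11), and Usp2, a clock-regulated protease, had 53.6 and 45.8 CPM at day 4, against 5.68 and 4.43 CPM at day 0 (3.29 ± 0.15).

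Several metabolic families had shares of higher genes well above the 39.1% of all genes tested. In the list of acyl-CoA synthetases and thioesterases, which activate fatty acids or release them, 11 of 12 tested genes were higher, 9 of them by more than 2-fold, and the median log2 change was 1.75. Acsl1, the main long-chain synthetase of fat cells, had 1200 and 1150 CPM at day 4, against 40.4 and 27.5 CPM at day 0 (5.11 ± 0.14). Acss1, which activates acetate in mitochondria, had 6.70 and 7.74 CPM at day 4 and no count at day 0. Of 38 tested genes of phospholipid and cardiolipin synthesis 21 were higher and 8 lower (15 when scaled by library size alone). Crls1, the cardiolipin synthase of the inner mitochondrial membrane, had 237 and 262 CPM at day 4, against 19.7 and 19.7 CPM at day 0 (3.66 ± 0.09). Sphingolipid genes went the other way, with 25 of 38 tested genes lower and 10 higher. The receptors for sphingosine-1-phosphate S1pr1, S1pr2 and S1pr3 fell, with log2 changes of -5.30, -5.00 and -4.44, and the ceramidase Acer2 rose to 171 and 143 CPM at day 4, against 1.62 and 1.36 CPM at day 0 (6.71 ± 0.16).

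Enzymes of nucleotide metabolism rose in larger numbers than they fell. Of 49 tested genes of purine and pyrimidine metabolism 30 were higher and 12 lower, or 27 and 17 when scaled by library size alone. Impdh1, the rate-limiting enzyme of GTP synthesis, had 1220 and 1270 CPM at day 4, against 38.7 and 36.4 CPM at day 0 (5.05 ± 0.09). Uck1, a uridine and cytidine kinase, had 671 and 627 CPM at day 4, against 42.8 and 42.2 CPM at day 0 (3.93 ± 0.09). Adenylate kinases parted, with the mitochondrial Ak4 at 36.9 and 30.8 CPM at day 4, against 0.991 and 1.63 CPM at day 0, and the cytosolic Ak1 at 8.13 and 11.2 CPM at day 4, against 85.7 and 77.4 CPM at day 0. Of 27 tested genes of polyamine, arginine, proline and glutamine metabolism 15 were higher and 9 lower, a difference that vanished when scaled by library size alone, with 10 each way. Glul, glutamine synthetase, had 924 and 1000 CPM at day 4, against 33.0 and 33.7 CPM at day 0 (4.85 ± 0.09). Ass1, the argininosuccinate synthase of arginine synthesis, had 0.239 and 0.725 CPM at day 4, against 34.9 and 36.2 CPM at day 0 (-6.17 ± 0.25). Of 21 tested cytochromes P450, 12 were higher and 8 lower. Cyp27a1, the sterol 27-hydroxylase, had 78.6 and 93.9 CPM at day 4, against 1.44 and 1.18 CPM at day 0 (6.03 ± 0.17), and Cyp1b1, an extrahepatic enzyme of hormone and xenobiotic oxidation, had 58.3 and 56.9 CPM at day 4, against 589 and 605 CPM at day 0 (-3.37 ± 0.08). Gpx4, the selenoenzyme that reduces lipid peroxides, had 985 and 886 CPM at day 4, against 230 and 203 CPM at day 0 (2.11 ± 0.09), while 11 of 23 tested selenium genes were lower and 10 higher.

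The balance shifted in some chosen pairs of related genes and held in others. In 36 such pairs both genes rose in 20, both fell in 3 and the 2 moved in opposite directions in 10. Of all genes tested 39.1% were higher and 39.4% lower. The pairs were chosen with these results known, so the numbers describe these pairs alone. Levels within a pair are given as CPM per kilobase of exon, so that genes of different length can be compared. Hexokinase 2 (Hk2), the insulin-responsive form, held 76.7% and 78.9% of the Hk2 and Hk1 sum at day 4, against 6.45% and 6.99% at day 0. Slc2a4 held 88.8% and 90.3% of its sum with Slc2a1 (GLUT1) at day 4, against 8.09% and 4.63% at day 0, and Slc2a1 was not called (0.20 ± 0.10, or -0.061 when scaled by library size alone).

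Insulin signalling genes were among the opposite pairs. Insr, the insulin receptor, had 15.6 and 18.1 CPM per kilobase at day 4, against 5.27 and 4.75 at day 0, and Igf1r, its relative for insulin-like growth factor 1, had 2.10 and 2.59 at day 4, against 6.39 and 5.88 at day 0. Akt2, the kinase form tied to glucose uptake, held 64.4% and 64.9% of its sum with Akt1 at day 4, against 16.9% and 17.4% at day 0. Foxo1 held 65.7% and 64.2% of its sum with Foxo3 at day 4, against 20.2% and 19.4% at day 0. Rhob held 69.3% and 71.0% of its sum with Rhoc at day 4, against 11.5% and 10.3% at day 0. These pairs were chosen with the results known, so the gap between their day 4 and day 0 shares follows from the choice. Pairs that rose together kept their balance in some cases, and Ldhb made up 26.7% and 28.9% of its sum with Ldha at day 4, against 27.3% and 27.3% at day 0.

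**Figure D4:**
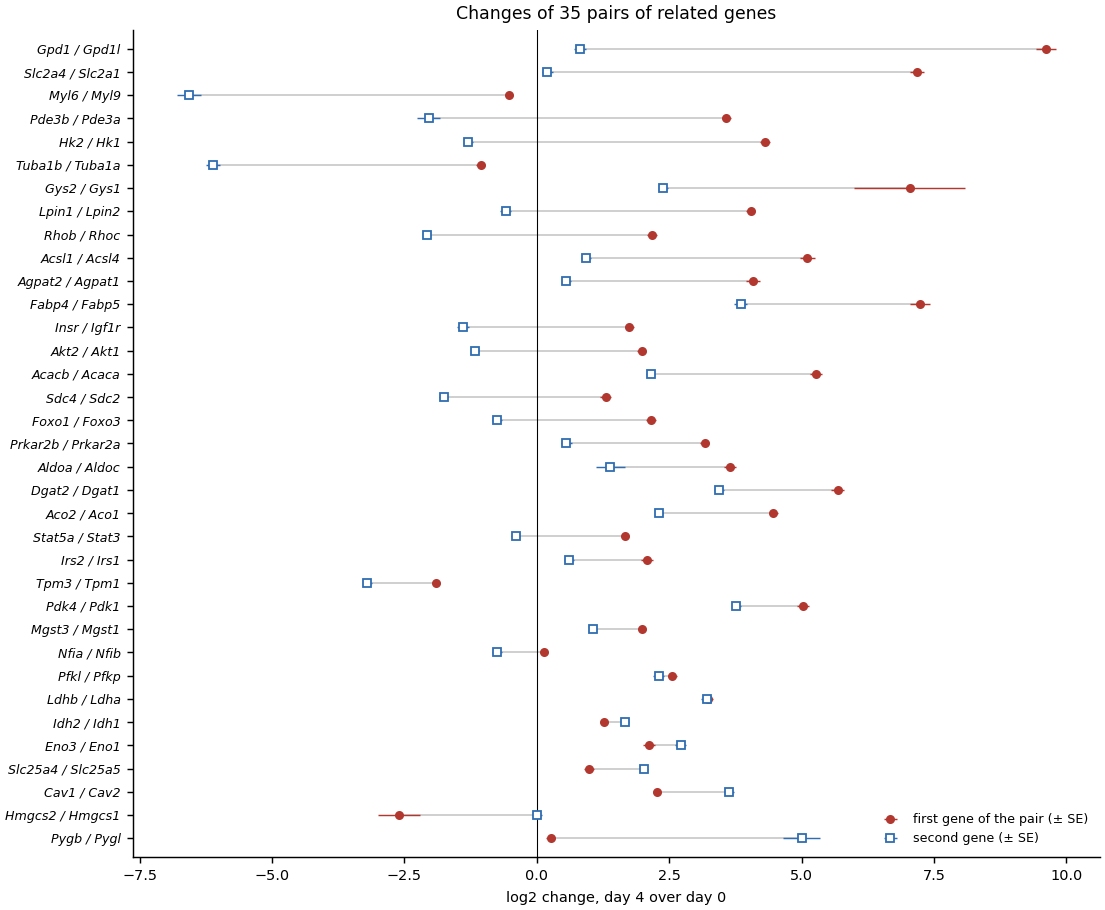
Log2 change (day 4 over day 0, ± SE) of both genes of 35 of the 36 pairs of related genes, ordered by the gap between them, with red circles for the first-named gene and open blue squares for the other. Among opposite pairs, Hk2 and Hk1 sit at 4.31 and -1.29.

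Genes that serve as references in quantitative PCR moved in both directions, as all genes tested did. Of 20 such genes 8 were higher (40%, against 39.1% of all) and 10 lower (50%, against 39.4%), or 6 and 12 when scaled by library size alone. A change of more than 2-fold was shown by 3 higher (15%, against 17.1%) and 5 lower genes (25%, against 19.5%). Gapdh, the glycolytic enzyme, had 434 and 355 CPM at day 4, against 78.8 and 78.0 CPM at day 0 (2.33 ± 0.10), and Pgk1, the kinase of the next step, had 2100 and 1960 CPM at day 4, against 191 and 191 CPM at day 0 (3.41 ± 0.09). Actb, β-actin, had 332 and 288 CPM at day 4, against 1930 and 1950 CPM at day 0 (-2.64 ± 0.09). Eef1a1, the elongation factor, had 7320 and 7320 CPM at day 4, against 7320 and 7440 CPM at day 0 (-0.01 ± 0.08, adjusted p = 0.9), and Ppia, cyclophilin A, had 824 and 707 CPM at day 4, against 809 and 729 CPM at day 0 (-0.01 ± 0.09, adjusted p = 0.95). Scaling by library size alone called both lower, at -0.28 and -0.27, and leaving out a single library moved Ppia between -0.12 and 0.11. Rplp0 (0.20 ± 0.08) and Tbp (0.24 ± 0.10) were called higher by a small margin, and scaling by library size alone turned them to -0.064 and -0.019. All of these changes are relative to the total of each library and depend on its scaling.

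**Figure D5:**
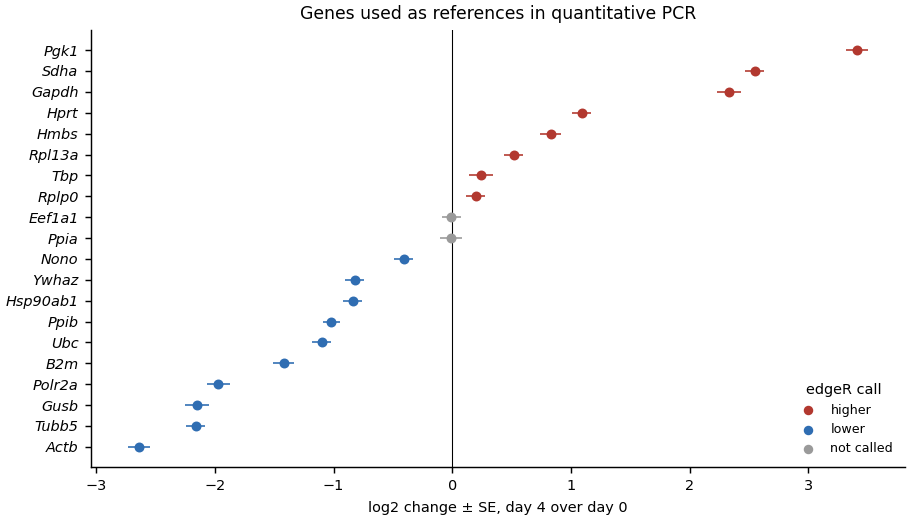
Log2 change (day 4 over day 0, ± SE) of 20 genes used as references in quantitative PCR, coloured by the edgeR call (red higher, blue lower, grey not called). Eef1a1 and Ppia sit at -0.01, while Pgk1 sits at 3.41 and Actb at -2.64.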

How the data were processed

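RNA was polyA-selected and sequenced on a DNBSEQ instrument. The authors deposited a table of counts per gene for the BAC cells. The study's methods name STAR, HTSeq and DESeq2, while tools listed in the submitters' processing notes are RSEM 1.3.1, Bowtie2 and DESeq2 1.4.5, with mm10 as build. No source used here gives the strand handling, so overlapping and antisense genes cannot be told apart. The table held 35976 rows, of which 27, with at most 0.316% of a library's counts, carried dates for names and were left out. A table of 3T3-L1 cells was not used here.

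Groups came from the labels. Counts passing filterByExpr (minimum count 10) were scaled by TMM and tested across all genes with edgeR 4.0.16 (R 4.3.3), by the quasi-likelihood test and by glmTreat against a fold of 2, with Benjamini-Hochberg adjustment and a threshold of 0.05. Alternatives were 12, among them DESeq2 1.42.0, other scalings, other filters, a replicate block and leaving out each library. Named genes were those with the largest gains, losses and folds, those at 0 on a day, up to 6 of each list (largest changes, highest level, largest change against the majority), both genes of each pair, markers and reference genes. Predicted genes were left out of the fold ranking and of the genes at 0 on a day. The members, lists, pairs and motifs were chosen with earlier results of these data known. Coordinates and promoter windows are from RefSeq GRCm38.p6, and exon lengths from GENCODE vM21. Replicates were not copies of each other. The chi-square statistic per gene was 5.17 between the day 4 libraries and 2.63 between the day 0 libraries. Results for a few genes and lists are not reported here.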

Additional observations from a re-analysis of the deposited data

How the results depend on the processing

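The 4 counts of called genes stayed within 1.5 times their reported values under all 12 alternatives. DESeq2 called 4749 higher and 5006 lower genes, and 1755 and 2110 past 2-fold. Leaving out each library in turn gave 4881 to 5300 higher and 5082 to 5386 lower genes, and scaling by library size alone lowered the share of higher genes among called ones to 38.7%, against 49.8% with TMM. Of the 162 tested genes named in the text, 4 changed direction under library size alone, namely Ebf2 (-0.069), Rplp0 (-0.064), Slc2a1 (-0.061) and Tbp (-0.019), all with reported changes under 0.25. Leaving out each library in turn moved Ppia, which was not called, between -0.12 and 0.11. Ebf2, Rplp0, Tbp and Mtr lost their calls under several alternatives, and the cause was not tested. The replicate block gave 5528 higher and 5571 lower genes and changed no call among these 162. Same-numbered libraries deviated together only weakly (correlation 0.026). The labels do not say whether a number marks a shared batch, and this correlation cannot settle it. With 2 libraries a group, an outlying library could not be singled out.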

Other observations

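Noncoding host and nuclear RNAs were more often higher than lower. Of 31 tested host genes of small RNAs and nuclear RNAs, 19 were higher (61.3%) and 7 lower (22.6%), with a median log2 change of 0.56, and scaling by library size alone left 14 higher and 7 lower. Dnm3os, a transcript opposite Dnm3 that hosts microRNAs, had 2.63 and 3.39 CPM at day 4, against 96.7 and 95.5 CPM at day 0 (-4.99 ± 0.14). Snhg20, a host gene of small RNA, had 31.7 and 35.3 CPM at day 4, against 6.49 and 8.32 CPM at day 0 (2.18 ± 0.14). Mir17hg, the host of the miR-17 cluster, had 5.86 and 7.37 CPM at day 4, against 1.35 and 1.72 CPM at day 0 (2.10 ± 0.27). Snhg18 had 9.21 and 8.95 CPM at day 4, against 36.9 and 38.3 CPM at day 0 (-2.05 ± 0.12). Without strand information, reads of Dnm3os and Dnm3 cannot be told apart.

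The day 4 libraries differed from each other more than the day 0 libraries did. With a small constant added to each CPM, 29 genes differed by more than 2-fold between the day 4 libraries and 9 between the day 0 libraries. The constant shrinks differences at low levels, so genes near 0 can be missed. It also applies to the median differences below. Ucp1 had 51.1 and 20.9 CPM in the day 4 libraries and Ffar4, a receptor for long-chain fatty acids, had 133 and 79.9 CPM. Mtr, methionine synthase, had 17.9 and 32.6 CPM, and Aspm, a protein of the mitotic spindle, had 23.9 and 40.4 CPM. The median difference between the day 4 libraries was 0.042 log2 units among genes higher by more than 2-fold and -0.002 among genes lower by more than 2-fold. Over all genes tested it was 0.008. Between the day 0 libraries the same 2 sets had medians of 0.015 and -0.024. The labels do not link a replicate number across the days, so the gaps of the 2 days cannot be tied to each other. What lies behind them was not tested. The mitochondrial transcripts COX2 and ATP6 also differed within day 0, with 1192 and 2449 counts of COX2 and 1040 and 2626 counts of ATP6.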
